A study of Homo sapiens with 6 samples.

Results

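RUNX1, RUNX2, RUNX3 and CBFB, the genes of the core-binding factor family, were examined for peaks of lysine acetylation (Kac) and lysine benzoylation (Kbz) in HepG2 cells, a human liver tumour line. These 4 of the 20033 protein-coding genes were chosen by name, and RUNX1 was also selected on the presence of an intronic Kbz peak with no Kac peak, so counts of such peaks in RUNX1 are a description and not a test. Each gene was taken as its body in GENCODE 44 (hg38) with 10 kb added on each side. The windows held 86 of 70326 control Kac peaks, 60 of 63282 SB Kac peaks and 21 of 24308 SB Kbz peaks.

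The cells were grown without treatment (control) or with sodium benzoate (SB, 10 mM for 24 h), a food preservative that cells convert to benzoyl-CoA. Chromatin cut with micrococcal nuclease was precipitated with pan antibodies to Kac or Kbz, which do not distinguish between histones or lysine positions. Of the 6 libraries, 1 in each group, the peak lists of control Kac, SB Kac and SB Kbz were used. Per the labels, control Kbz gave no peaks, so Kbz had no untreated counterpart here. With 1 library per group, replicate error is unknown and no difference between lists was tested. Depth was unknown, and more cells that carry a mark at a site cannot be told apart from more of the mark in each cell.

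RUNX proteins bind DNA through the Runt domain, and CBFB, which does not touch DNA itself, joins them and strengthens that binding. RUNX1 is needed for the formation of blood stem cells, RUNX2 for bone-forming osteoblasts, and RUNX3 for killer T cells and a class of sensory neurons. Each RUNX gene has a distal promoter (P1) and a proximal promoter (P2) rich in CpG dinucleotides, which give proteins with different amino ends. Histone acetylation marks active promoters and enhancers, and histone benzoylation is a related mark derived from benzoate.

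All 4 genes held peaks of every list in their windows, which is the usual state, since 84.5% of protein-coding genes had a control Kac peak, 83.1% an SB Kac peak and 75.2% an SB Kbz peak by the same rule. RUNX1 held 47 control Kac, 29 SB Kac and 11 SB Kbz peaks. RUNX2 held 21, 16 and 5 in the same order. RUNX3 held 13, 9 and 2. CBFB held 5, 6 and 3. The order of control and SB Kac was not stable, since CBFB had 3 of each in the gene body alone and 12 against 10 with 50 kb added, and RUNX2 had 5 control Kac against 6 SB Kac peaks once the −log10 q threshold was 5. The map of peaks in the gene windows shows how they were spread.

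**Figure D1:**
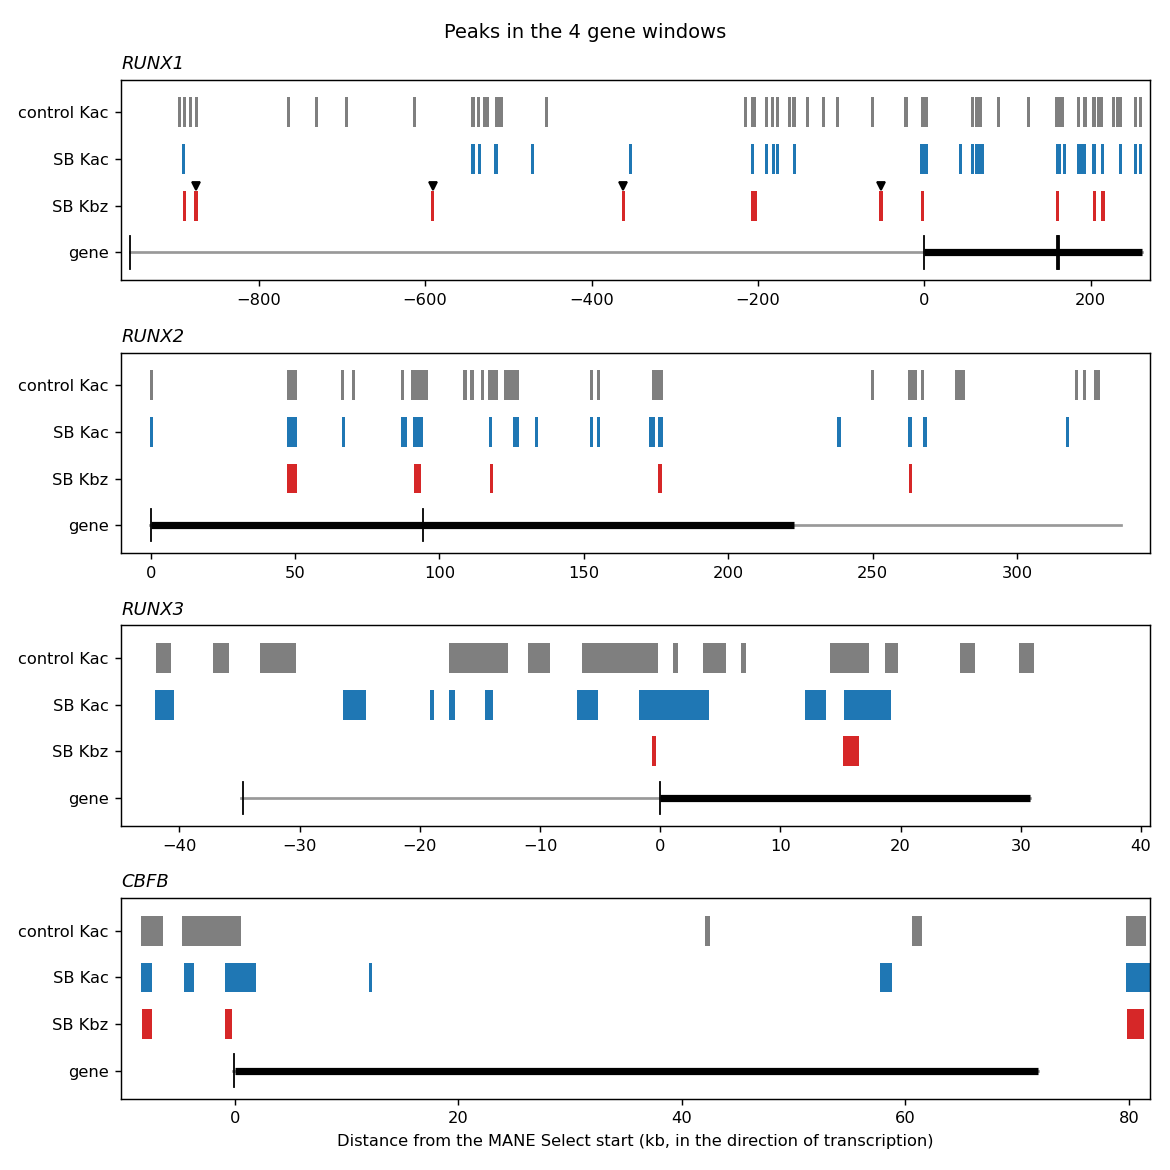
Peaks of control Kac (grey), SB Kac (blue) and SB Kbz (red) in the 4 gene windows, with the distance from the start of the MANE Select transcript in kb on the x axis. In the gene row the thick bar is that transcript, the thin line the rest of the gene and the ticks are transcript starts, black triangles mark the 4 Kbz peaks of RUNX1 without Kac, and the shortest peaks are drawn a little wider than scale.

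The genes differed in length. RUNX1 spans 1217 kb in the annotation (chr21:34787801-36004667, minus strand), longer than 99.8% of protein-coding genes, RUNX2 336 kb (chr6:45328157-45664349, plus strand), RUNX3 65.6 kb (chr1:24899511-24965121, minus strand) and CBFB 72.1 kb (chr16:67028984-67101058, plus strand). Per 100 kb of window, RUNX3 had the most Kac, with 15.2 control Kac and 10.5 SB Kac peaks, and CBFB the most Kbz, with 3.26 peaks. Both places depended on the rule: the 3 Kbz peaks of CBFB lay wholly in the flanks, so the gene body alone held 0. At a −log10 q of at least 5, RUNX3 kept 1 control Kac and 0 SB Kac peaks, while CBFB kept 3 and 3. In the windows as defined, RUNX1 had the fewest of each, 3.80, 2.34 and 0.889 peaks per 100 kb.

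The share of each window covered by peaks gave another order for Kac than for Kbz. In RUNX3, control Kac covered 32.8% and SB Kac 21.4%, which placed it at percentiles 91.9 and 82.9 among protein-coding genes, yet Kbz covered 1.92%, at percentile 45.5. In CBFB control Kac covered 11.2%, SB Kac 8.76% and Kbz 3.30%, at percentiles 63.8, 57.0 and 58.5. RUNX2 had 11.0%, 6.59% and 2.45%, at percentiles 63.1, 48.9 and 50.9. RUNX1 had 6.55%, 3.55% and 0.875%, at percentiles 48.1, 34.2 and 33.3. The medians over protein-coding genes were 7.02%, 6.88% and 2.37%. Among only the 3667 protein-coding genes of at least 100 kb, a different scale, the RUNX2 covered share ranked at percentiles 87.3, 74.6 and 87.0. That of RUNX1 ranked there at 73.9, 53.8 and 51.2.

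The strength of a peak was read as the percentile of its deposited fold, the ratio over background, within its own list, where 100 is the strongest. Most RUNX1 Kbz peaks were weak, with a median percentile of 4.38 and a range from 0.117 to 99.8. The 5 RUNX2 Kbz peaks had a median percentile of 31.6 and the 2 of RUNX3 one of 52.6. The 3 of CBFB lay at 42.7, 93.9 and 98.7, with the one at 93.9 over the start of PHAF1. The Kac peaks in the CBFB window had median percentiles of 86.3 in control and 72.1 in SB cells. The medians were 39.6 and 23.4 in RUNX1, 44.8 and 38.7 in RUNX2, and 41.9 and 20.8 in RUNX3. In control the place of CBFB depended on its flanks, where 2 of its 5 Kac peaks lay at 86.3 and, at PHAF1, 91.3. The control Kac peaks that touched the gene were at 87.4, 28.9 and 3.30. In SB cells the 3 flank peaks were at 77.4, 36.6 and 90.2, and the others at 94.5, 49.5 and 66.8. The plot of fold percentiles shows that 1 RUNX1 Kbz peak stood far above the other 10.

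**Figure D2:**
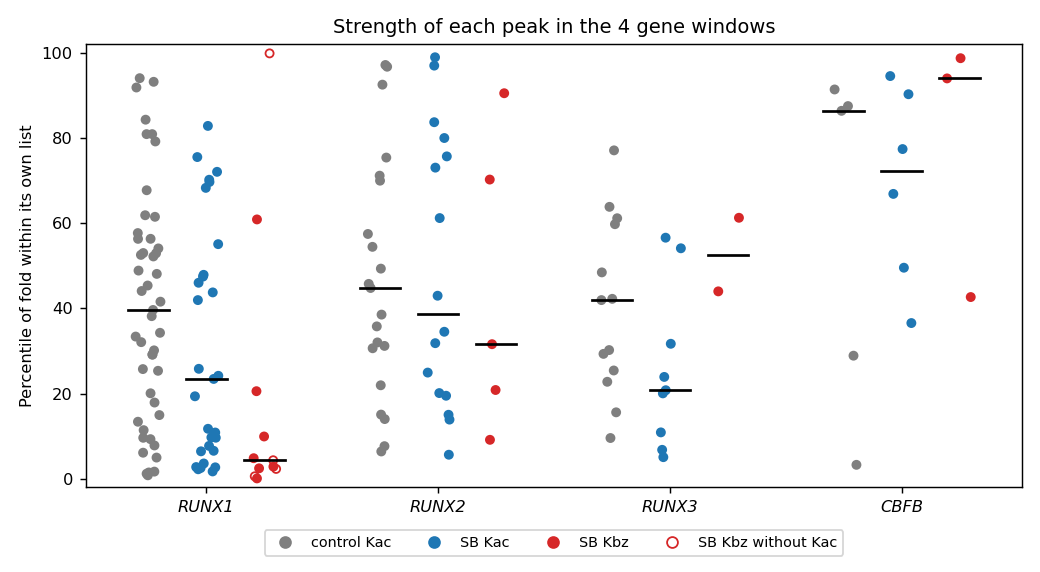
Percentile of the fold of each peak within its own list (y axis) by gene and list, with each point 1 peak, the black line the median, open circles the Kbz peaks without Kac, and the sideways position within a column arbitrary. The RUNX1 Kbz peaks lie at 0.117 to 60.9 except for an open circle at 99.8, and the RUNX3 points all lie under 80.

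RUNX1, picked for a Kbz peak with no Kac, held all 4 Kbz peaks of that kind. Of its 11 Kbz peaks 7 shared at least 1 bp with a Kac peak of either condition, as did 5 of 5 in RUNX2, 2 of 2 in RUNX3 and 3 of 3 in CBFB. The 4 genes together gave 17 of 21, or 81.0%, beside 95.1% of the whole Kbz list. Because RUNX1 was chosen for a Kbz peak without Kac, no interval is given for this share. A gene with at least 1 Kbz peak without Kac was found in 4.02% of protein-coding genes, and 4 or more such peaks, as in RUNX1, in 0.02%, which is 4 of 20033 genes. Among the 3667 genes of at least 100 kb, which are nearer to RUNX1 in length, 3 genes or 0.0818% held 4 or more. RUNX1 was picked for this trait, and 3 of its 4 such peaks had a −log10 q below 2, so these shares are a description.

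In the other direction, 16 of the 60 peaks of SB Kac met at least 1 Kbz peak. This was 26.7% (Wilson 95% interval for counting error, 17.1 to 39.0%), beside 33.8% of the whole SB Kac list, which lies inside that interval. The counts were 6 of 29 in RUNX1, 5 of 16 in RUNX2, 2 of 9 in RUNX3 and 3 of 6 in CBFB. Control Kac peaks met an SB Kac peak in 23 of 47 cases in RUNX1, 12 of 21 in RUNX2, 7 of 13 in RUNX3 and 3 of 5 in CBFB. Over the 4 genes this made 45 of 86, 52.3% (41.9 to 62.6%), beside 64.7% of the whole control Kac list, and 48 of the 60 SB Kac peaks, 80.0%, met a control Kac peak, beside 72.5% of the whole SB Kac list. Since the lists differ in length, each share holds for the list named.

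The 4 genes have 10 groups of protein-coding transcript starts, joined where they lie within 1 kb. A control Kac peak lay within 3 kb of 9 of the 10, an SB Kac peak of 8 and an SB Kbz peak of 6, while over all 35865 such groups those shares were 59%, 58.3% and 44%. The RUNX1 groups at 34889790, 34888690 and 34887183 share 1 peak in each list, so these counts hold that peak more than once. The view of the starts shows that P1 and P2 of the same gene differed.

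**Figure D3:**
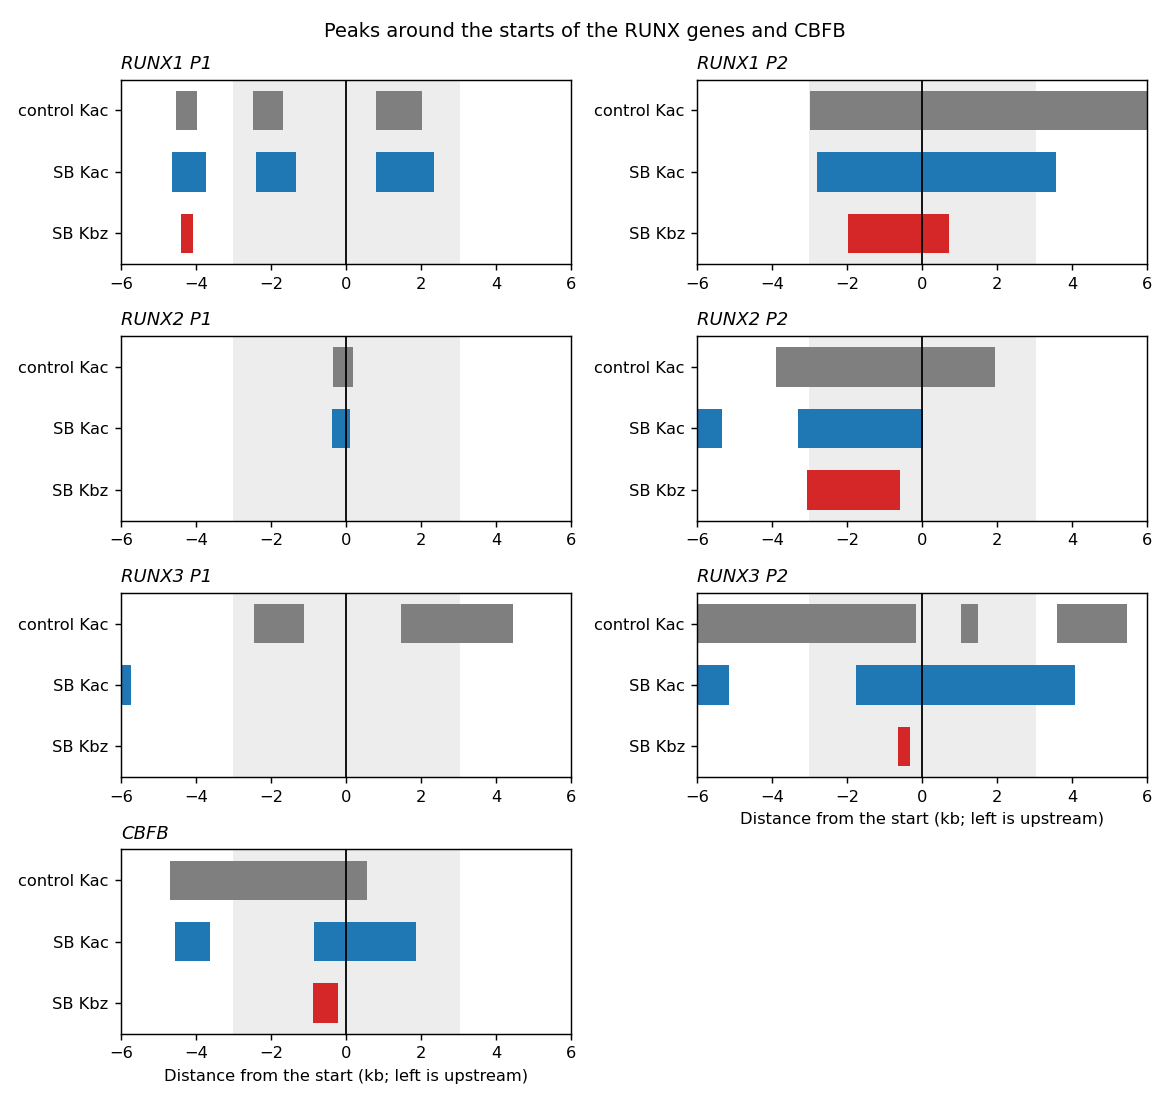
Peaks of control Kac (grey), SB Kac (blue) and SB Kbz (red) around the P1 and P2 starts of the RUNX genes and the CBFB start, with the distance from the start in kb on the x axis, upstream to the left, and the 3 kb on each side shaded. Kbz lies within 3 kb of each P2 start and of CBFB and within 3 kb of no P1 start, and it covers the start at RUNX1 P2 only.

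The sequences of 3 RUNX promoters are given beside these marks, though only that of RUNX1 P2 lay under Kbz. They are the bases of the RefSeq window (GRCh38.p14) before the start, or for RUNX2 P1 before the first base of the annotated gene, read along the gene from 5′ to 3′, with each CpG in capitals. RefSeq windows were matched for 3 of the 4 genes and 5 promoters. The 250 bases before RUNX1 P2 (chr21:34888700-34888949, minus strand) hold 32 CpGs, the 250 before RUNX3 P2 (chr1:24930277-24930526, minus strand) hold 33, and the 77 shown before RUNX2 P1 (chr6:45328080-45328156, plus strand) hold 0. The P1 promoters were not alike, since the 250 bases before RUNX3 P1, not printed, hold 13 CpGs and have a GC content of 67.6%.
RUNX1 P2: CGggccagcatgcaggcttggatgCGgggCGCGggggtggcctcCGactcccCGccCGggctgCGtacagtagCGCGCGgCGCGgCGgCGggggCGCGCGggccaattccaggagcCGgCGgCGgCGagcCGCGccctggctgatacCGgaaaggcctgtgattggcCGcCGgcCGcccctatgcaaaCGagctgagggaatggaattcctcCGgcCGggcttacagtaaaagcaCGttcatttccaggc
RUNX3 P2: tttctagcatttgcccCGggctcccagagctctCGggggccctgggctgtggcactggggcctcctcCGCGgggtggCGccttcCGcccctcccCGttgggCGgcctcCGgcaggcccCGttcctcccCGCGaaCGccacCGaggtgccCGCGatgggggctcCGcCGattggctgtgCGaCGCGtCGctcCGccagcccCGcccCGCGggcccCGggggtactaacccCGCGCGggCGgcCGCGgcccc
RUNX2 P1: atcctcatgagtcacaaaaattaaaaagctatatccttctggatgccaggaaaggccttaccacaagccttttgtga

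At RUNX1 P1, the start of the MANE Select transcript, Kac was present in both conditions but beside the start and not on it. The nearest control Kac peak (chr21:35047277-35048494, percentile 25.8) lay 776 bp downstream and the nearest SB Kac peak (chr21:35046946-35048501, percentile 43.7) 769 bp downstream. Upstream of the start, control Kac had a stronger peak 1654 bp away (chr21:35050998-35051780, percentile 80.9). SB Kac had a weaker one there, 1290 bp away (chr21:35050634-35051710, percentile 11.8). No Kbz peak lay within 3 kb, the nearest being 4040 bp upstream, at chr21:35053384-35053718, where Kac of both conditions was present and Kbz had a percentile of 2.88.

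At RUNX1 P2 all 3 lists had a broad peak, and this was the only promoter of the 4 genes where a Kbz peak covered a start. The control Kac peak (chr21:34881634-34891690) was 10057 bp long, the longest in the windows, with a fold percentile of 84.2. The SB Kac peak (chr21:34885120-34891492) was 6373 bp long, at percentile 82.8, and the Kbz peak (chr21:34887986-34890675) 2690 bp long, at percentile 60.9. All 300 bases of the RefSeq window of this promoter lay under each of the 3 peaks. The Kbz peak covered the starts at 34889790 and 34888690 and ended 803 bp upstream of the one at 34887183.

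RUNX2 P1, which drives the bone-specific form, carried short Kac peaks over the start in both conditions and no Kbz peak within 3 kb, the nearest being 46779 bp away. The control Kac peak (chr6:45327980-45328524) was 545 bp long at percentile 6.44, and the SB Kac peak (chr6:45327959-45328423) 465 bp long at percentile 31.8. Their −log10 q values were 1.77 and 2.82, so at a threshold of 2 this start kept Kac in SB cells only. The RefSeq window here has a GC content of 42.7% and an observed to expected CpG ratio of 0.147, at percentile 15.1 among promoters. That of RUNX2 P2 has a GC content of 76.0% and a ratio of 0.902.

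RUNX2 P2 was more strongly marked, at percentile 92.5 in control Kac (chr6:45418583-45424434) and 96.9 in SB Kac (chr6:45419180-45422505), both over the start. The Kbz peak (chr6:45419414-45421901, percentile 70.2) ended 584 bp before the start group and left all 300 bases of the RefSeq window uncovered. It overlapped ENSG00000271857, a lncRNA read in the opposite direction, so it cannot be given to RUNX2 alone.

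RUNX3 P1 was the one start with control Kac and no SB Kac peak within 3 kb, while within 1 kb it had Kac of neither condition. The control peaks lay 1134 bp upstream (chr1:24966144-24967478, percentile 63.8) and 1452 bp downstream (chr1:24960549-24963558, percentile 42.2), the latter over the start of the antisense RNA RUNX3-AS1. The nearest SB Kac peak was 5749 bp away and the nearest Kbz peak 34091 bp.

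At RUNX3 P2, the start of its MANE Select transcript, the SB Kac peak (chr1:24926196-24932036, 5841 bp, percentile 54.1) covered the start. Control Kac lay on both sides of it. The larger control Kac peak (chr1:24930451-24936794, 6344 bp, percentile 61.1) began 175 bp upstream, and a smaller one (chr1:24928789-24929250, percentile 30.2) lay 1026 bp downstream. The Kbz peak (chr1:24930617-24930919) was 303 bp long, at percentile 44, and lay 341 bp upstream. The RefSeq window had 76 bases in the larger control Kac peak, 300 in the SB Kac peak and 0 in the Kbz peak.

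At CBFB, which has a single group of starts (67029116 to 67029461), Kac covered the start at percentile 87.4 in control (chr16:67024445-67029714) and 94.5 in SB cells (chr16:67028301-67031009). The Kbz peak (chr16:67028263-67028941) was at percentile 98.7, with a fold of 8.36, and ended 175 bp upstream of the first start. The nearest Kbz peak thus lay upstream, with no start covered, at 4 of the 6 Kbz-marked start groups of the 4 genes, which were RUNX1 at 34887183, RUNX2 P2, RUNX3 P2 and CBFB. The RUNX1 peak also covered the starts at 34889790 and 34888690, which are counted among the other marked groups. The share over all Kbz-marked start groups was 18.8%, and 6 groups are too few for more than a count.

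The Kbz peaks at these starts differed in base composition. That of RUNX1 P2 had a GC content of 69.5% and that of RUNX3 P2 70.3%, at percentiles 98.0 and 98.6 of the Kbz list, whereas RUNX2 P2 had 52.0% and CBFB 50.2%, at percentiles 38.9 and 32. The middle 300 bases of the RUNX1 peak (chr21:34889180-34889479) and the RUNX2 peak (chr6:45420507-45420806) are given in the direction of each gene, with CpG in capitals, since both carry Kbz at or beside a P2 start. They hold 39 and 11 CpGs, and over the whole peaks the observed to expected CpG ratio was 0.892 and 0.721, at percentiles 98.0 and 80.7 of the Kbz list.
RUNX1 P2 Kbz: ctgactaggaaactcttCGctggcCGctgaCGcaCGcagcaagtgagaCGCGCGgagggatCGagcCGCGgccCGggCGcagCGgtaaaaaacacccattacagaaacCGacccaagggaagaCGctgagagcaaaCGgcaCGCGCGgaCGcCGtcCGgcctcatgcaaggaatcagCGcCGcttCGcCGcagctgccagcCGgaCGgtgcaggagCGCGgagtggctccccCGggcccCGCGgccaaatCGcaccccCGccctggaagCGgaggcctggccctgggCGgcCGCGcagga
RUNX2 P2 Kbz: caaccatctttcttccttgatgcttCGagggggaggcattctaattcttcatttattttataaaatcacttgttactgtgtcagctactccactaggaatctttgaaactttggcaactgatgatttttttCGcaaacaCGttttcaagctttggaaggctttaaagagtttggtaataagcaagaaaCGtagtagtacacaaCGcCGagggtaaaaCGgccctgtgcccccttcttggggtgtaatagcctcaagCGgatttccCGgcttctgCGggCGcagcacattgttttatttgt

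The P1 promoters of RUNX2 and RUNX3 share a sequence that RUNX proteins bind, AACCACA. It occurs as a tandem pair 1 base apart, shown here because the marks at these starts were weak or beside the start. Capitals mark the motif, searched on both strands.
RUNX2 P1 (chr6:45328343-45328361, plus strand, 15 bases after the RefSeq start): acAACCACAgAACCACAag
RUNX3 P1 (chr1:24965126-24965144, minus strand, 132 bases before the RefSeq start): tcAACCACAgAACCACAag
At least 1 match was present in 4.27% of the 35116 RefSeq promoter windows and at least 2 in 0.148%, or 52 windows. RUNX2 P1 held 3 matches in its 300 bases and RUNX3 P1 2, and the windows of RUNX1 P2, RUNX2 P2 and RUNX3 P2 held 0. All 300 bases of the RUNX2 P1 window lay under Kac in both conditions and none under Kbz, and the RUNX3 P1 window lay under no peak of any list. A match is a description of the letters, not evidence of binding.

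RUNX1 had 43 intronic peaks of control Kac, 25 of SB Kac and 10 of Kbz, and RUNX2 had 19, 14 and 4. Downstream of RUNX1 P2, Kbz lay at the start of the lncRNA ENSG00000286153 (chr21:34835707-34836366, percentile 4.86) and in an intron 40162 bp from the nearest start (chr21:34846341-34847021, percentile 20.6), both over Kac of the 2 conditions. The strongest Kbz peak in the RUNX2 window (chr6:45375506-45379002, 3497 bp, percentile 90.4) lay over the start of SUPT3H, a gene of a histone acetyltransferase complex that runs in the opposite direction and starts inside RUNX2, with Kac at percentile 97.1 in control and 98.9 in SB cells. The other 3 intronic Kbz peaks of RUNX2 lay 23277, 81489 and 168239 bp downstream of P2, at percentiles 20.9, 31.6 and 9.17, each with Kac of both conditions. RUNX3 had 1 intronic Kbz peak, 15.2 kb downstream of P2 (chr1:24913747-24915089, percentile 61.2), over Kac of both conditions and stronger in its list than the peak at P2. In CBFB no Kbz peak lay inside the gene, and besides the one before its start there were 2 in the flanks, at the start of PHAF1 (chr16:67108980-67110489, percentile 93.9) and near RN7SL543P (chr16:67020851-67021697, percentile 42.7).

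RUNX1 was split, after its peaks were seen, at the MANE Select transcript, because the transcript ENST00000475045, which starts at 36004667, carries the gene body far upstream. No peak of any list lay within 3 kb of that start, and the nearest control Kac peak was 20257 bp, SB Kac peak 53839 bp and Kbz peak 54498 bp away. In the 281.5 kb of the MANE Select transcript with its flanks, control Kac covered 15.4%, SB Kac 10.6% and Kbz 1.55%. In the 955.4 kb upstream the covered shares were 3.93%, 1.47% and 0.675%. Control Kac peaks met an SB Kac peak in 14 of 19 cases in the first stretch (73.7%) and in 9 of 28 in the second (32.1%). The control Kac peaks of the 2 stretches had median percentiles of 48.9 and 35.8. All 4 Kbz peaks of the first stretch had Kac, against 3 of 7 in the second, and since the split was made on seen peaks these are counts without a test.

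Within the upstream stretch, the largest marked block was at about 205 kb from the MANE Select start, where a control Kac peak of 7084 bp (chr21:35251037-35258120, percentile 93.1) and an SB Kac peak of 4103 bp (chr21:35254074-35258176, percentile 69.6) held 2 Kbz peaks. These Kbz peaks (chr21:35254047-35254475 and chr21:35256341-35257734) were at percentiles 2.48 and 9.95. The third Kbz peak with Kac there (chr21:35939984-35940594) was the weakest of all members, at percentile 0.117.

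The 4 RUNX1 Kbz peaks without Kac all lay in introns of ENST00000475045, upstream of P1, and the one at chr21:35411752-35412860 lay also in an intron of the shorter transcript ENST00000467692. Of these, 3 were among the weakest of the list. They lay 52.9 kb (chr21:35102180-35103237), 362 kb (chr21:35411752-35412860) and 592 kb (chr21:35640955-35642288) from the MANE Select start, with percentiles of 0.611, 4.38 and 2.34 and −log10 q of 1.54, 1.66 and 1.68, below the value of 2 that equals the FDR of 0.01 stated for the calls. In the one at 362 kb, 91.9% of the stretches of 50 bases, the read length, occurred once in the genome, and the most repeated occurred 6191 times.

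The other was among the strongest Kbz peaks of the genome. It was 517 bp long (chr21:35926071-35926587), in intron 5 of ENST00000475045, 78.1 kb from the start of that transcript and 877 kb upstream of the MANE Select start, and overlapped no other annotated gene. Its fold was 10.5, rank 50 of 24308, and its −log10 q 41.9, rank 12. Among the 1179 Kbz peaks without Kac it ranked 1 by both, with the next at a fold of 9.91. It was the only one of the 50 Kbz peaks with the highest fold that had no Kac.

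Kac was close to this peak in control cells. A weak control Kac peak (chr21:35924742-35925738, percentile 5.0, −log10 q of 1.98) ended with 332 bases between the peaks, and the nearest SB Kac peak lay beyond 13276 bases, so a count of Kac peaks within 1 kb as overlap gives this peak Kac. The peak also stood apart in sequence, with a GC content of 28.2%, lower than in all but 22 of the 24308 Kbz peaks. Among the other 49 of the top 50 by fold the lowest GC content was 44.7% and the median 58.4%. Every stretch of 50 bases in it occurred once in the genome.

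The middle 300 bases of this peak (chr21:35926179-35926478) are printed in the direction of RUNX1, with CpG in capitals, for comparison with the RUNX1 P2 sequences above. They hold 2 CpGs and a GC content of 27.3%, and turn into a run of A and T repeats toward the end.
RUNX1 intron 5 Kbz: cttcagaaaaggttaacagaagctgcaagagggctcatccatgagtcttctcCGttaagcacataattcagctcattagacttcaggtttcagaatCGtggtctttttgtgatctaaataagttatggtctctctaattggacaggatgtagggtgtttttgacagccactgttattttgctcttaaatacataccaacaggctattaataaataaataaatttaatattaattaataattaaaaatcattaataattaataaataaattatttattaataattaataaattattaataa
By the coordinates of the plus strand, the first 200 bases of the peak are 96% A and T with 0 CpGs, and the other 317 bases 56.5% with 2. Low GC content went with missing Kac over the whole list too, with medians of 43.9% for the 1179 Kbz peaks without Kac and 55.0% for the 23129 with Kac. The part of base composition in these peaks was not tested. The letters ACCACA, the core of the RUNX motif, were present in the middle 300 bases of 20.4% of Kbz peaks without Kac and 13.9% of those with Kac, and this peak held 0.

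**Figure D4:**
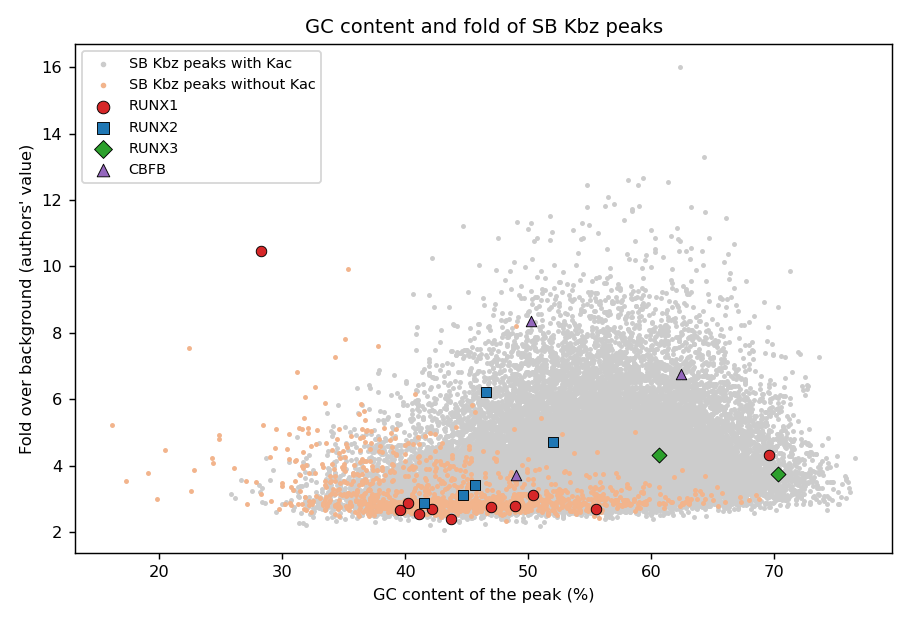
GC content in percent (x axis) and the authors' fold over background (y axis) of all 24308 SB Kbz peaks, grey with Kac and orange without, and the 21 peaks of RUNX1 (circles), RUNX2 (squares), RUNX3 (diamonds) and CBFB (triangles). The RUNX1 intron 5 peak stands alone at a GC content of 28.2% and a fold of 10.5.

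Peaks near the window edges were found at CBFB. RUNX1 and RUNX2 had no peak in the added 10 kb that lay wholly outside the gene, and the nearest peaks beyond their windows were 13.1 and 44.5 kb from the gene, both control Kac. In RUNX3 the farthest peak inside lay 5.89 kb from the gene and the nearest outside 18.8 kb, both control Kac. CBFB had the closest edge, with the farthest Kbz peak inside at 7.92 kb, at PHAF1, and the nearest outside at 10.6 kb.

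The nearest protein-coding genes that do not overlap the 4 were mostly marked at their own promoters. SETD4 (29.9 kb from RUNX1), CDC5L (878 kb from RUNX2), CLIC4 and SYF2 (55.2 and 257 kb from RUNX3) and PHAF1 (8.88 kb from CBFB) had promoter peaks in all 3 lists. CLIC5 (216 kb from RUNX2) and CES4A (18.6 kb from CBFB) had Kac in both conditions and no Kbz, and CLIC6 (69.6 kb from RUNX1) had none.

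Of 38 partners and cofactors of RUNX proteins, 34 had control Kac at a promoter, 35 SB Kac and 29 SB Kbz, or 89.5%, 92.1% and 76.3%, beside 76.5%, 75.7% and 64.6% of all protein-coding genes. The highest Kbz percentiles were those of STUB1 (97.4), a ubiquitin ligase, and CEBPA (96.6), a transcription factor of liver and myeloid cells. GATA1, the erythroid transcription factor, was the only one with Kac in a single condition, in SB cells, at percentile 43.9. TAL1, ERG and IKZF1, which partner RUNX1 in blood cells, had no promoter peak in any list, and LMO2, LYL1, FLI1, TLE2 and SMURF2 had Kac in both conditions and no Kbz. TAL1, ERG, IKZF1 and these 5 were named after their values were seen.

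Targets of RUNX1 and RUNX3 in blood cells were counted by the same rule. Of 20, 19 had control Kac, 16 SB Kac and 8 Kbz, or 95%, 80.0% and 40%, beside the 76.5%, 75.7% and 64.6% of all protein-coding genes. MPO (percentile 15.0), PRF1 (51.2) and GP1BA (12.8), which encode a granulocyte enzyme, perforin and a platelet receptor, had a promoter peak in control Kac and none in SB Kac or Kbz. The highest Kbz percentiles were those of CSF3R (97.0), the G-CSF receptor, ITGA4 (96.8), an integrin, and CD8A (89.9), a T cell co-receptor.

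Targets of RUNX2 in bone and cartilage were marked at 13, 12 and 10 of 18 promoters, or 72.2%, 66.7% and 55.6%, each near or under the share of all protein-coding genes (76.5%, 75.7% and 64.6%). VEGFA (99.1), the vascular growth factor, had the highest Kbz percentile of these, and ALPL, an alkaline phosphatase, had one of 71.5. DMP1, a protein of bone matrix, had control Kac alone, at percentile 69.0. None of the partners, blood targets or bone targets had Kbz within 3 kb of a start without Kac there.

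The liver markers, those of the labelled cell type, had promoter peaks less often than all protein-coding genes (76.5%, 75.7% and 64.6%). Of 10 liver markers 5 had control Kac at a promoter, 6 SB Kac and 3 Kbz, or 50%, 60% and 30%, APOA1 and APOA2 among them. ALB, SERPINA1, FGB and FOXA2 had no promoter peak in any list, and ALB had no peak in its gene body plus 10 kb. Of 7 blood markers 3 had peaks in all 3 lists, CD34 and SPI1 among them, and the other 4 had none. Of 3 osteoblast markers 2 had Kac and 1 Kbz, and SPI1 and the 3 osteoblast markers are also in the lists above. Their part in the results for the RUNX genes was not tested.

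By the percentiles of covered share in the 3 lists, the gene most like RUNX1 was CPE, with a largest difference of 0.958 percentile points, then RUFY4 (1.86) and VGLL1 (2.04). RUNX2 was nearest to COIL (1.01), ENSG00000279686 (1.957) and CENPV (2.42), RUNX3 to TGM2 (1.92), CARD10 (2.32) and DMWD (3.14), and CBFB to USP36 (0.789), CELF1 (0.928) and PIGL (1.09). These are likenesses over 3 libraries among 20033 genes.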

How the data were processed

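ChIP-seq peaks of control Kac, SB Kac and SB Kbz were analysed, with 1 library each. As the study's methods and the labels state, the authors aligned single reads of 50 bases to hg38 with Bowtie2 2.2.6, kept unique alignments, removed duplicates with SAMtools 0.1.19 and called broad peaks per library with MACS2 2.1.1 at a stated FDR of 0.01. The broad setting and background track are not given in the sources used here. Each peak came with a deposited fold, which is a linear ratio over background, and a deposited −log10 p-value and −log10 q-value. The deposited display score was not used. The highest q was 0.0487, 0.0494 and 0.0485 in the 3 lists, beyond the stated FDR. Peak lists hold no read totals, so depth is unknown and intervals cover counting error only.

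Peaks on 24 chromosomes were kept, and 3 control Kac peaks elsewhere were left out. Overlap meant at least 1 bp shared, a promoter 3 kb on each side of a start (GENCODE 44). Percentiles of fold were taken within each list. Genes named in the text were the 4 members, their neighbours, the 3 nearest in covered share, and in the related lists those with Kbz but no Kac, with Kac in 1 condition, or with the 3 highest Kbz percentiles, of which some are not reported here. Members and lists were chosen with earlier results of these data known. RefSeq promoter sequences were from GRCh38.p14. Overlap code was tested with positions planted in the control Kac list, and it found 500 of 500 inside peaks and 0 of 460 between peaks. Python 3.11.15, numpy 2.4.6, pandas 2.3.3, numba 0.67.0, pysam 0.24.0, matplotlib 3.10.9 and samtools 1.23.1 were used. No test between groups was possible.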

Additional observations from a re-analysis of the deposited data

How the results depend on the processing

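No paired analysis was possible because there was 1 library per group, and no replicate could be left out. Of 74 recomputed values on the comparisons, 51 stayed within the limits set and 23 moved. Of 90 for single genes 40 moved, some of which changed the order of the genes. Raising the −log10 q threshold to 5 left the 4 genes with 19 control Kac, 15 SB Kac and 7 SB Kbz peaks, which covered 3.66%, 2.14% and 0.719% of the windows against 8.96%, 5.30% and 1.37%. At that threshold SB Kac marked 5 start groups, control Kac 43 of the 76 genes of the 3 related lists and SB Kac 41, against 66 and 63, and 63.2% of control Kac peaks met an SB Kac peak. Taking only the top 15000 peaks per list by −log10 p, the 4 genes held 14, 13 and 8 peaks, SB Kac marked 5 start groups, 46.2% of SB Kac peaks met Kbz and 64.3% of control Kac peaks met SB Kac. With at least 50% of the peak covered, those last shares were 10.0% and 33.7%. The share of Kbz peaks with Kac was 93.8% (15 of 16) at a −log10 q of at least 2, since 3 of the 4 without Kac fell below it. Choices made after seeing the data were to take RUNX1 as its MANE Select transcript, which gave 100% for that share and covered shares of 14.9%, 9.78% and 2.18%, and to count a Kac peak within 1 kb, which gave 85.7% (18 of 21). Peak numbers move with depth, which is unknown.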
